A study of Mus musculus with 201 samples.

Results

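Dual-specificity phosphatases (DUSPs) remove phosphate from both the tyrosine and the threonine of activated mitogen-activated protein kinases (MAPKs), and so switch off the ERK, JNK and p38 kinases. Several DUSP genes are themselves transcribed after ERK activation, as negative feedback, and some are counted among the immediate early genes (IEGs), the genes that neurons transcribe within minutes of activity. Expression of 10 of these genes was followed here in single dentate granule cells (DGCs), the principal neurons of the dentate gyrus. The genes were taken from a list of names, not by their values: *Dusp1*, *Dusp2*, *Dusp4* and *Dusp5*, whose proteins are inducible and nuclear; *Dusp6*, a cytoplasmic phosphatase of ERK; *Dusp8*, *Dusp10* and *Dusp16*, which prefer JNK and p38; and the small atypical members *Dusp3* and *Dusp14*. All 10 were found in each of the 3 pairs of tables, which hold 42790 gene symbols for whole cells, 42802 for nuclei after a new environment (NE) and 42774 for home cage (HC) nuclei.

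The samples were 201 single cells and nuclei of mice. PTZ and saline whole cells came from Prox1-GFP mice, in which the promoter of *Prox1*, a DGC transcription factor, drives GFP. The mice were injected with pentylenetetrazole (PTZ), a GABA(A) receptor antagonist that provokes seizures, or with saline, and were killed an hour later. Their hippocampi were pooled within treatment and digested with a protease, and GFP+ cells were sorted. NE nuclei came from the hippocampus of a female C57BL/6 mouse after exposure to a new cage with huts and tunnels. They were freed by Dounce homogenization and sorted on PROX1 and FOS protein as Prox1+/Fos+ (FOS+) or Prox1+/Fos- (FOS−). HC nuclei were NeuN+/Prox1+ nuclei of a C57BL/6 mouse left in its cage, amplified on the Fluidigm C1 instrument instead of by Smart-seq2. After limits on depth and on detected genes there were 40 of 48 FOS+ nuclei, 41 of 48 FOS− nuclei, 30 of 35 PTZ cells and 38 of 47 saline cells, and all 23 HC nuclei were used. Each group came from 1 mouse or 1 pool of mice. Cells and nuclei are thus not replicates of a condition, no group difference was tested, and intervals cover counting error only. The titles of all PTZ cells share one suffix and those of all saline cells another, and what the suffixes name, if it is more than the treatment, cannot be told apart from it.

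Total counts per sample ran from 63775 to 1060516 in NE nuclei, from 107647 to 278779 in HC nuclei and from 67212 to 5129240 in whole cells. A gene was called detected where its TPM, the RSEM abundance scaled to transcript length and to the library, was above 1. The sort on FOS protein was matched by RNA: *Fos* was detected in 12 of 40 FOS+ and 3 of 41 FOS− nuclei, and *Arc*, an IEG of the synapse, in 31 of 40 and 1 of 41. The DGC marker *Prox1* was detected in 33 of 40 FOS+, 34 of 41 FOS− and 14 of 23 HC nuclei and in every whole cell. *C1ql2*, another DGC marker, was detected less often with FOS, in 45% against 61.0% of nuclei, and the summed TPM of the 6 DGC markers had a median of 4628 in FOS+ and 6510 in FOS− nuclei. Of these 6 markers, 2 were detected more often and 3 less often with FOS, a median difference of -0.2 points. In nuclei the inhibitory neuron markers *Gad1* and *Gad2* were detected more often with FOS, at 47.5% against 36.6% and 35% against 17.1%. *Slc32a1* and *Pvalb* were detected in no FOS+ nucleus and *Pvalb* in no FOS− nucleus. Over the 6 inhibitory neuron markers, 3 were detected more often and 2 less often with FOS, a median difference of 0.1 points. Of the 6, whole cells had *Gad1* alone, in 70.0% of PTZ and 86.8% of saline cells. The TPM of the 6 inhibitory neuron markers summed to between 0 and 1360 in FOS+ nuclei and between 0 and 5822 in FOS− nuclei. PTZ cell 22 stood apart, with 12699 TPM over 6 astrocyte markers against 95.7 over 6 DGC markers. The TPM of the same astrocyte markers summed to between 0 and 234 in saline cells, and *Aldoc*, 1 of them, was detected in 33.3% of PTZ and 7.89% of saline cells. Over the 6 astrocyte markers, 3 were detected more often and 2 less often in PTZ cells, a median difference of 1.7 points. The part of these cells and markers in the results was not tested.

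Promoter sequences are shown for the 3 genes that were detected in FOS+ and in no FOS− nucleus, *Dusp1*, *Dusp5* and *Dusp6*, and for *Dusp8*, which was detected about equally in both. Each is the 250 bases before the gene start in RefSeq (GRCm38.p6), on the gene's own strand from 5′ to 3′. They lie at chr17:26508473-26508722 on the minus strand, chr19:53528895-53529144 and chr10:99262981-99263230 on the plus strand and chr7:142095285-142095534 on the minus strand. Gene positions given below are from another annotation, GENCODE, whose gene starts can differ. The *Dusp1* and *Dusp8* windows lie inside the GENCODE spans of these genes, and the *Dusp5* window partly so. Capitals mark matches, on either strand, to the cyclic AMP response element (CRE) TGACGTCA, its core TGACG, the AP-1 site TGANTCA, the EGR site GCGNGGGCG or the CArG box of serum response factor. The core lies within the CRE, once on each strand, so each CRE also holds 2 core matches.
Dusp1: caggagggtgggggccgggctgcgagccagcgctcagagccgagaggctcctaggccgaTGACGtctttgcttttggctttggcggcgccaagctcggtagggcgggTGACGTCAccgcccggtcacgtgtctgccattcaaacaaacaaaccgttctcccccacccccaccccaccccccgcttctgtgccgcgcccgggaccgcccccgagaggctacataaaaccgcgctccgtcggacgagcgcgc
Dusp5: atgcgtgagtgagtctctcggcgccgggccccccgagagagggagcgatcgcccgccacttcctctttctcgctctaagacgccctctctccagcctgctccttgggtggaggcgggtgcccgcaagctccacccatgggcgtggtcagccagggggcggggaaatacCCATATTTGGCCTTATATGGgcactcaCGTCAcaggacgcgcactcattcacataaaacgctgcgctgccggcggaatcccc
Dusp6: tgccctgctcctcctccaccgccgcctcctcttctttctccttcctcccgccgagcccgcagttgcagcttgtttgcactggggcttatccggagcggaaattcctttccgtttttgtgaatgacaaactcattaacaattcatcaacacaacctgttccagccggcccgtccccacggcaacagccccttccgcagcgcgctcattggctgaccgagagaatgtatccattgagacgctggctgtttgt
Dusp8: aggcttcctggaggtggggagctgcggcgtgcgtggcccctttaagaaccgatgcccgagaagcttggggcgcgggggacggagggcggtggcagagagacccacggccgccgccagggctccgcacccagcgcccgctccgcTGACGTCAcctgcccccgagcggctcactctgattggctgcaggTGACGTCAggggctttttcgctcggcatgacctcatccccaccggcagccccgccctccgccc

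The *Dusp1* window held 1 CRE, 136 to 143 bases before the start, and a further core. *Dusp8* held 2, at 100 to 107 and 56 to 63 bases. Of 32851 promoters of the same length, 1.55% held a CRE and 17.8% a core. *Dusp5* held 2 adjoining CArG boxes, from 63 to 82 bases before the start, and 1 core, and 1.47% of all promoters held a CArG box. None of the letters searched were in the *Dusp6* window. Among the other members, *Dusp2* and *Dusp16* each held 1 EGR site, found in 4.70% of promoters, and *Dusp16* 1 core. The AP-1 letters, in 6.75% of promoters, were in no member's window. Promoters were matched for 9 of the 10 members, all but *Dusp4*. These matches describe letters and not binding.

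None of the 10 members passed the main rule, a difference of at least 20 percentage points in detection and 2-fold in mean CPM (counts scaled to the library total). At the alternative of 10 points, 4 members were higher in FOS+ than in FOS− nuclei, where 7.71% of all genes examined were. They were the inducible nuclear *Dusp1*, *Dusp4* and *Dusp5* and the ERK phosphatase *Dusp6*. A gene was examined if detected in at least 5 NE nuclei. *Dusp1*, *Dusp5* and *Dusp6* met this through FOS+ nuclei alone, so that they passed at 10 points followed from it. The intervals of the shares overlap. The 4 were rare even among FOS+ nuclei, where each was detected in 12.5% to 20%, and 3 of them were detected in no FOS− nucleus. At least 1 of the nuclear members *Dusp1*, *Dusp2*, *Dusp4* and *Dusp5* was detected in 11 of 40 FOS+ nuclei (27.5%, exact 95% interval 14.6 to 43.9%) and in 1 of 41 FOS− nuclei (2.44%, 0.0617 to 12.9%). None of the 4 was detected in any of 23 HC nuclei, which allows a share of up to 13% by the limit of 3 counts over n and 14.8% by the exact interval. The remaining members were detected in both sorts of NE nuclei or, for *Dusp2*, in neither.

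**Figure D1:**
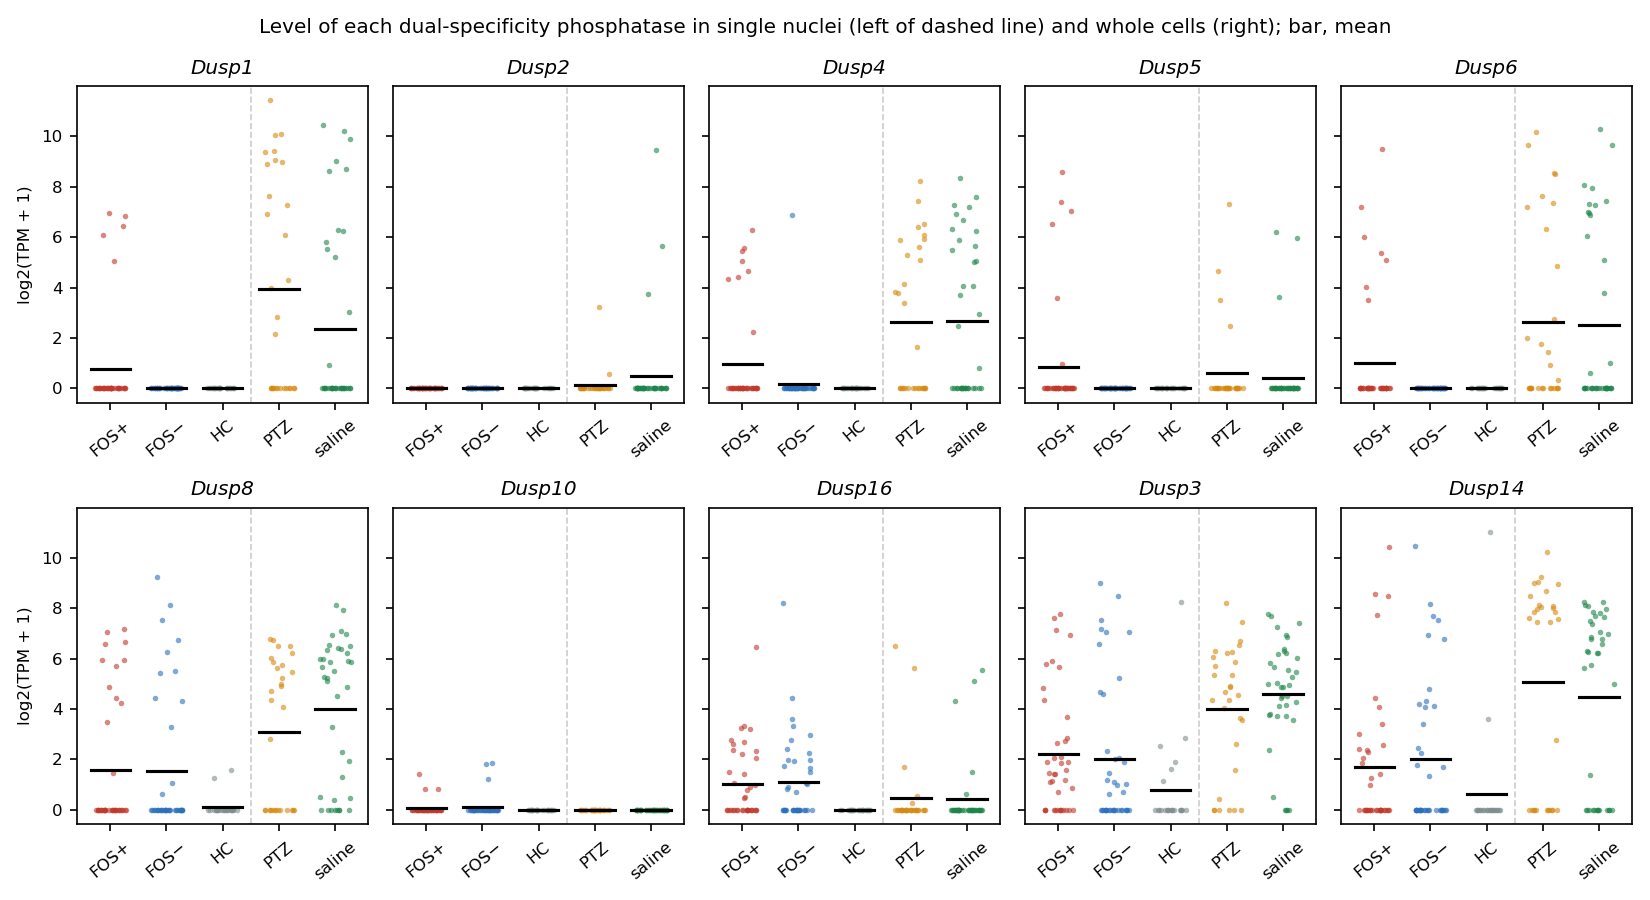
Each point is one nucleus or cell, with log2(TPM + 1) on the vertical axis for each of the 10 genes, and bars give group means. Points for *Dusp1*, *Dusp5* and *Dusp6* lie above 0 in some FOS+ nuclei and at 0 in all FOS− and HC nuclei, whereas *Dusp3*, *Dusp8*, *Dusp14* and *Dusp16* have points above 0 in both FOS+ and FOS− nuclei.

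*Dusp1* (chr17:26505590-26562128, GRCm38) encodes a nuclear phosphatase of all 3 MAPK classes and is a classical IEG. Its TPM in the 5 FOS+ nuclei that had it was 32.1, 66.9, 86.4, 112 and 123, and 0 in the other 35. It was at 0 in all 41 FOS− nuclei, which allows a share of up to 7.32% by the limit of 3 over n and 8.60% by the exact interval. The mean of log2(TPM + 1) was 0.78 ± 2.11 (SD, n = 40 nuclei) with FOS and 0 without. Summed over nuclei, 313 reads (exact Poisson 95% interval 279 to 350) stood against 0. The pooled level was 101-fold that of a floor of 3 counts set over the FOS− group. Without FOS+ nucleus 47, which held 141 of these reads, it was 59.4-fold that floor. Neither value is a lower bound, since reads came many to a nucleus. The 5 FOS+ nuclei with *Dusp1* held 22 to 141 reads of it each, so a single FOS− nucleus with the gene could exceed the floor.

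*Dusp4* (chr8:34807297-34819894) encodes a nuclear phosphatase of ERK and JNK. It was the most widespread of the 4, with 8 FOS+ nuclei at a TPM of 3.73 to 76.0 and a median of 27.9. A lone FOS− nucleus, replicate 14, had a log2(TPM + 1) of 6.88 from 20 reads, above every FOS+ nucleus, so that the 2 sorts overlap. Mean CPM was 11.2 in FOS+ and 4.43 in FOS− nuclei, a 2.52-fold difference, and without that FOS− nucleus the FOS− mean was 0. Pooled over all reads the ratio was 10.8, and 5.34 without FOS+ nucleus 47, which held 121 of the 224 FOS+ reads.

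*Dusp5* (chr19:53529109-53542431) encodes a nuclear phosphatase specific to ERK. Its TPM was 11, 90.7, 131, 164 and 377 in 5 FOS+ nuclei, below 1 in one other FOS+ nucleus and 0 in every FOS− nucleus. The 400 reads (362 to 441) put the pooled level at least 129-fold higher with FOS. An antisense gene, AC137853.2, overlaps 22.1% of the exonic bases of *Dusp5*, and Smart-seq2 does not mark strand, so reads there cannot be told apart.

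*Dusp6* (chr10:99263231-99267489) encodes a phosphatase that binds ERK in the cytoplasm. It was detected in 7 FOS+ nuclei at 10.3, 15.1, 33, 40.7, 63.6, 146 and 710 TPM and in no FOS− nucleus. The highest value came from a nucleus of 105067 reads that held 43.9% of the 337 reads of the gene, and the pooled level was at least 109-fold higher with FOS, or at least 61.4-fold without this nucleus. The mean of log2(TPM + 1) was 1.02 ± 2.37 (SD, n = 40), the highest of the 4. Each of these means is smaller than its SD over nuclei.

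By the size rule applied to all genes, a difference of at least 20 percentage points in detection and at least 2-fold in mean CPM, none of the 10 members passed in either direction. Among 16387 genes detected in at least 5 NE nuclei, 2.89% were past it as higher in FOS+ and 2.57% as lower. At 10 points no member passed as lower, where 9.89% of genes did. Of the 10 members 8 were detected in at least 5 NE nuclei, and *Dusp1*, *Dusp5* and *Dusp6* through FOS+ nuclei alone. The detection differences were 12.5 points for *Dusp1* and *Dusp5*, 17.5 for *Dusp6* and 17.6 for *Dusp4*, and without FOS− nucleus 14 *Dusp4* reached 20 and passed the rule. With every nucleus thinned to 50000 reads and detection set at 1 read, the differences were 12.5, 12.5, 15 and 12.6 points in the same order. *Dusp3* then differed by 13.2 points in place of 18.6, *Dusp8* by -4.3 in place of 3.2 and *Dusp14* by -11.8 in place of -1.5. A rule made from these values, detection in at least 5 FOS+ and in no FOS− nucleus, held for 0.293% of genes, and that *Dusp1*, *Dusp5* and *Dusp6* meet it follows from how it was made.

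**Figure D2:**
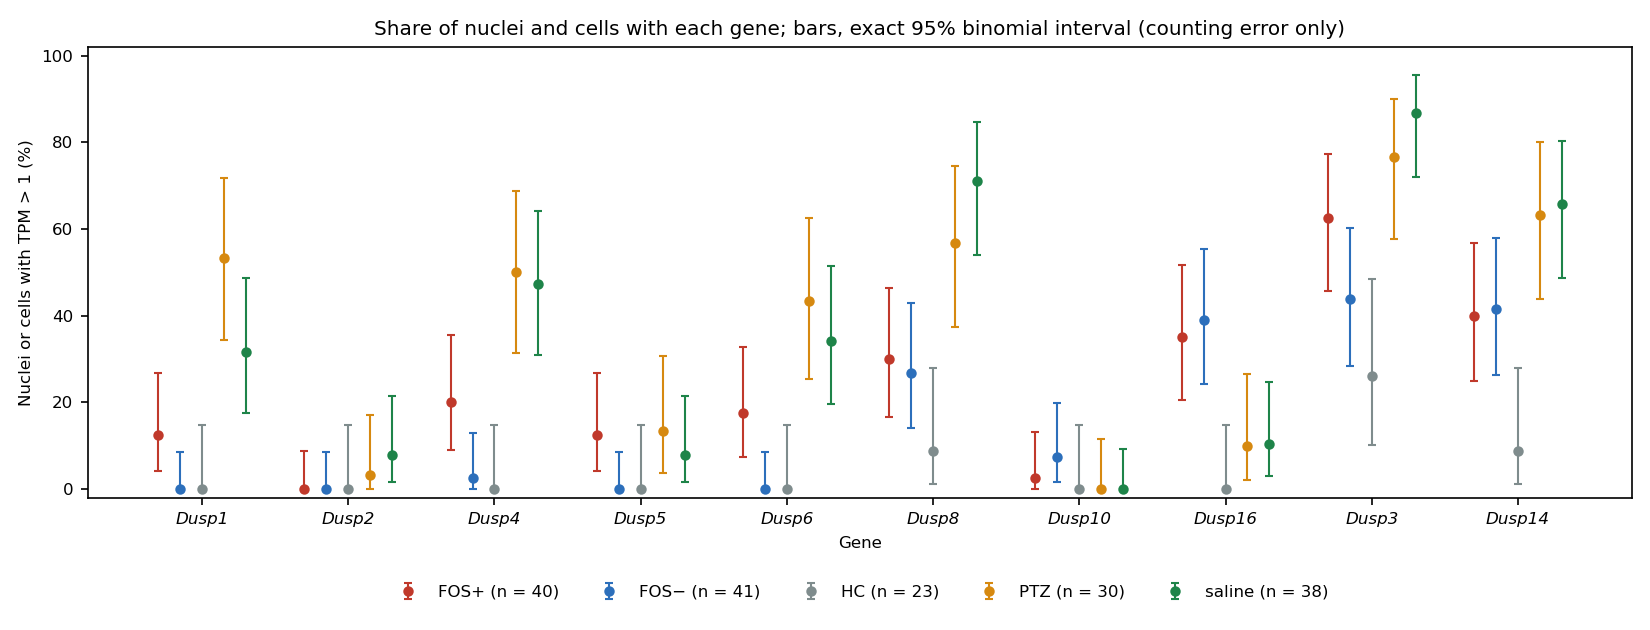
The share of nuclei or cells with a TPM above 1 is plotted for each gene in the 5 groups, with exact 95% binomial intervals. FOS+ shares of *Dusp1*, *Dusp4*, *Dusp5* and *Dusp6* run from 12.5% to 20% beside FOS− shares of 0% to 2.44%, and their intervals overlap. PTZ and saline intervals overlap for every gene.

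The grouping of *Dusp6* with the nuclear members was made after the values were seen. Of 40 FOS+ nuclei, 16 had at least 1 of *Dusp1*, *Dusp4*, *Dusp5* and *Dusp6*, 10 had exactly 1 and 6 had more. *Dusp1* and *Dusp4* shared 3 nuclei, *Dusp1* and *Dusp5* shared 3, and *Dusp4* and *Dusp5* shared 3, where the product of the shares gives 1.00, 0.625 and 1.00. *Dusp6* shared 1 nucleus with *Dusp1*, 2 with *Dusp5* and none with *Dusp4*, where the product gives 0.875, 0.875 and 1.40. These counts are too small to set *Dusp6* apart. *Arc* was detected in 15 of the 16 nuclei against 31 of all 40, *Fos* in 9 against 12 of 40 and *Prox1* in 13 against 33 of 40. The exception without *Arc* was FOS+ nucleus 14, which had only *Dusp4*. These nuclei were also deeper, with a median of 419350 reads against 269061 in all FOS+ nuclei. Of the 25 detections, 24 rested on at least 5 reads and 18 on at least 20.

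**Figure D3:**
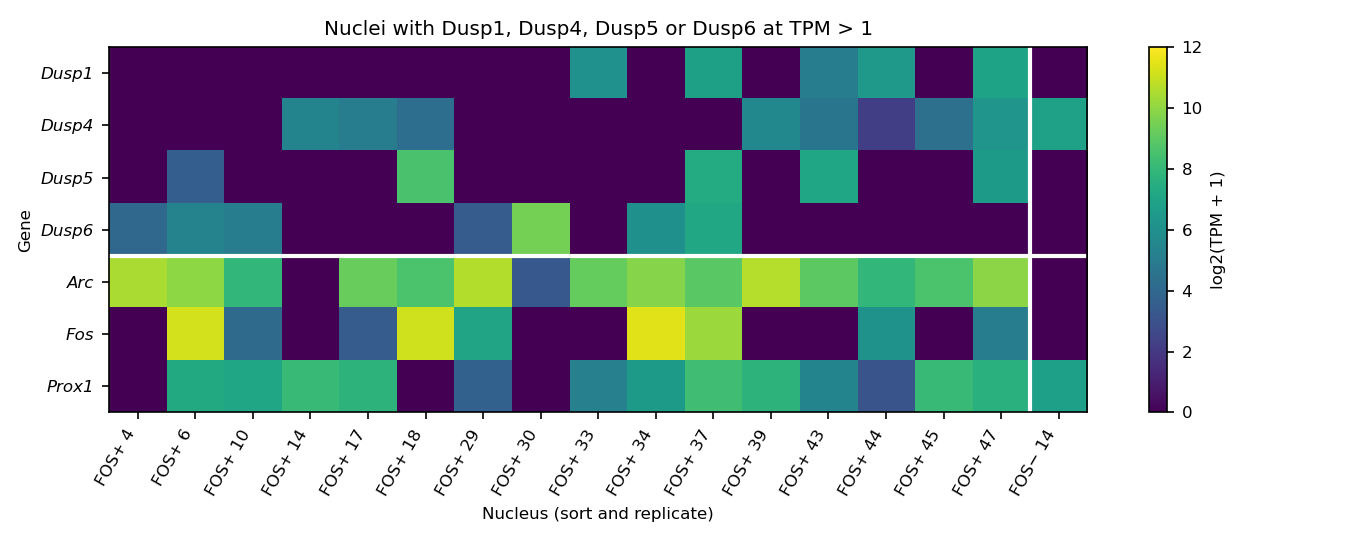
Columns are the 16 FOS+ nuclei and the 1 FOS− nucleus with *Dusp1*, *Dusp4*, *Dusp5* or *Dusp6*, rows are genes and colour is log2(TPM + 1). *Dusp4* and *Dusp6* are not found in the same column, and *Arc* is above 0 in 15 of the 16 FOS+ columns.

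NE nuclei were amplified under 4 conditions, with a template switching oligonucleotide (TSO) at 1 or 10 µM and ERCC spike-ins diluted 1:200 or 1:2000, and detection followed these. All 8 FOS+ nuclei with *Dusp4*, and the FOS− nucleus, had 10 µM TSO. Conversely, 6 of 7 FOS+ nuclei with *Dusp6* had 1 µM TSO, among 18 FOS+ nuclei at 1 µM and 22 at 10 µM. Of the 5 nuclei with *Dusp1*, 4 were from 10 µM TSO with 1:2000 ERCC, where 36.4% of 11 FOS+ and none of 11 FOS− nuclei had it. *Dusp4* was detected in 45.5% and *Dusp5* in 27.3% of the same 11 FOS+ nuclei. FOS+ exceeded FOS− nuclei in 2 of 4 conditions for *Dusp1* and *Dusp4* and in 3 of 4 for *Dusp5* and *Dusp6*, and was lower in none. The part of TSO in which gene was detected was not tested.

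**Figure D4:**
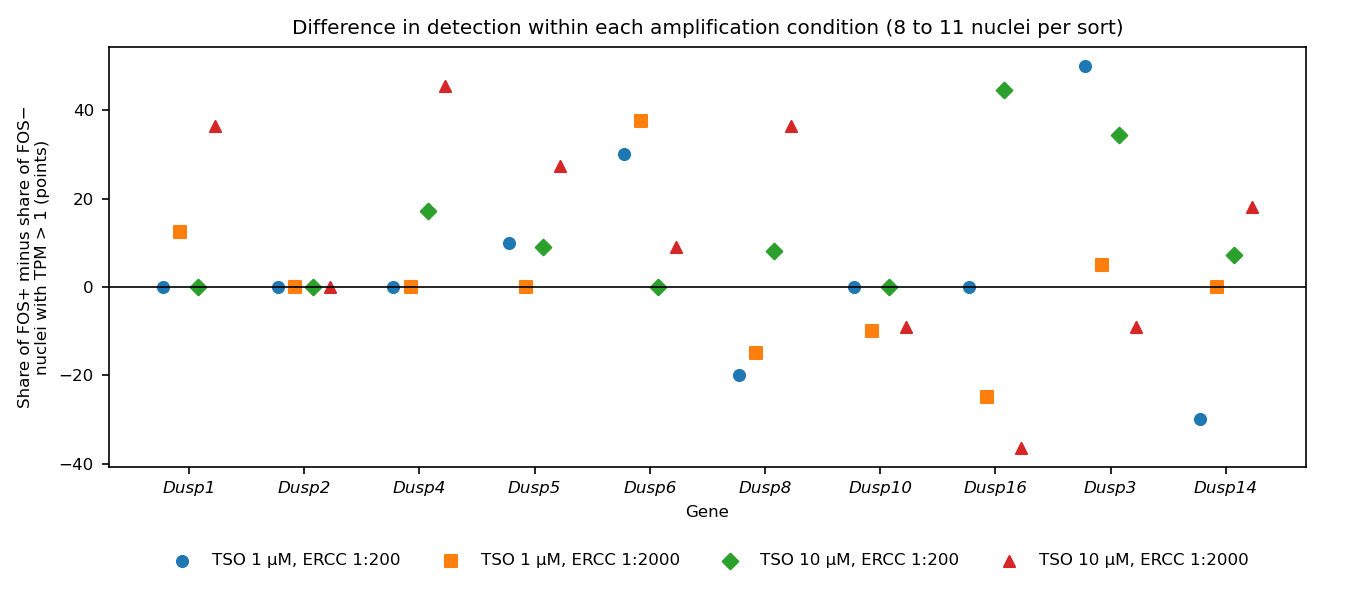
The share of FOS+ minus the share of FOS− nuclei with a TPM above 1 is plotted in percentage points within each of 4 amplification conditions. Points for *Dusp1*, *Dusp4*, *Dusp5* and *Dusp6* lie at or above 0, up to 45.5, and those for *Dusp8*, *Dusp3*, *Dusp14* and *Dusp16* lie on both sides. *Dusp1*, *Dusp5* and *Dusp6* were detected in no FOS− nucleus, so their points cannot lie below 0.

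The JNK and p38 phosphatases did not separate the sorts. *Dusp8* was detected in 12 of 40 FOS+ nuclei (30%, exact interval 16.6 to 46.5%) and 11 of 41 FOS− nuclei (26.8%, 14.2 to 42.9%). Its TPM when detected ran from 1.79 to 143 with FOS and from 1.07 to 592 without. Mean CPM was 1.94-fold higher in FOS− nuclei, at 98.1 against 50.5, but without FOS− nucleus 6 the log2 ratio went from -0.96 to -0.16. *Dusp16* was detected in 14 FOS+ and 16 FOS− nuclei, and 13 and 11 of these had fewer than 5 reads. A single FOS− nucleus, replicate 31, held 91.9% of its 587 FOS− reads, and without it the log2 ratio of mean CPM turned from -1.84 to 0.69. *Dusp10* was at the edge of detection, with 2 reads in all FOS+ and 3 in all FOS− nuclei.

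At a TPM above 1, the atypical members were the most widely detected in NE nuclei, though many of these detections rested on few reads. *Dusp3*, a small phosphatase of ERK and JNK, was found in 25 of 40 FOS+ nuclei (62.5%, 45.8 to 77.3%) and 18 of 41 FOS− nuclei (43.9%, 28.5 to 60.3%), a difference of 18.6 points. It was 8.1 points at a TPM above 5 and 3.2 when 5 reads were asked for. Its level went the other way: mean CPM was 62.6 in FOS+ and 100 in FOS− nuclei, and the median TPM where detected was 5.29 and 23.7. Without FOS+ nucleus 46 the log2 ratio of mean CPM went from -0.68 to -1.39. Of the 25 FOS+ detections, 13 had fewer than 5 reads. The non-coding gene Gm20659 overlaps 12.9% of the exonic bases of *Dusp3* on the other strand. *Dusp14* was detected in 40% of FOS+ and 41.5% of FOS− nuclei, with a mean CPM of 52.5 and 52.7. Fewer than 5 reads lay behind 11 of the 16 FOS+ and 8 of the 17 FOS− detections of *Dusp14*. Its highest TPM was 1357 in a FOS+ and 1397 in a FOS− nucleus, and leaving out the FOS− nucleus, replicate 12, or FOS+ nucleus 22 moved the log2 ratio from -0.01 to 1.19 or -1.14.

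HC nuclei stand beside these only as values, since platform, mouse and read length all differ from the NE nuclei. *Dusp3* was detected in 6 of 23 HC nuclei (26.1%, 10.2 to 48.4%), with TPM from 1.22 to 305, and 5 of the 6 had fewer than 5 reads. *Dusp14* was detected in 2, at 11.3 and 2090 TPM, the highest value of this gene in any sample kept. *Dusp8* was detected in 2, each with 1 read. The other 7 members were at 0 in every HC nucleus. Any member at all was detected in 9 of 23 HC nuclei (39.1%, 19.7 to 61.5%), 38 of 40 FOS+ nuclei (95%, 83.1 to 99.4%) and 33 of 41 FOS− nuclei (80.5%, 65.1 to 91.2%). HC nuclei also had fewer detected genes, with a median of 3213 against 6326 and 6020.

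In whole cells *Dusp1*, *Dusp4* and *Dusp6* were detected in over 30% of the cells of both treatments. *Dusp4* was detected in 15 of 30 PTZ cells and 18 of 38 saline cells, and *Dusp6* in 13 of each. At least 1 of the nuclear members *Dusp1*, *Dusp2*, *Dusp4* and *Dusp5* was found in 21 of 30 PTZ cells (70.0%, 50.6 to 85.3%) and 21 of 38 saline cells (55.3%, 38.3 to 71.4%). By the rule of 20 points and 2-fold, 1 member passed as higher in PTZ cells, *Dusp1*, and none as lower. Among 13748 genes, 2.26% passed as higher and 1.56% as lower. At 10 points *Dusp1* was again the member past the rule, where 7.88% of genes passed as higher and 5.09% as lower.

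*Dusp1* was detected in 16 of 30 PTZ cells (53.3%, 34.3 to 71.7%) and 12 of 38 saline cells (31.6%, 17.5 to 48.7%). Where detected, its TPM ran from 3.42 to 2728 with a median of 339 in PTZ cells, and from 7.18 to 1385 with a median of 233 in saline cells, so that the treatments overlap over most of the range. Mean CPM was 307 and 133, a 2.30-fold difference, and the mean of log2(TPM + 1) was 3.95 ± 4.26 (SD, n = 30) and 2.37 ± 3.71 (SD, n = 38). PTZ cell 29, with 2728 TPM, held 31.3% of the reads, and without it the fold was 1.59 and the rule was no longer met. The difference in detection was 21.8 points and fell to 11.8 when 5 reads were asked for, since 3 of the 16 PTZ cells had fewer. *Fos* was detected in 26 of 30 PTZ and 30 of 38 saline cells, and *Arc* in 14 and 17.

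*Dusp6* was likewise detected at high levels in single cells of both treatments. Its median TPM where detected was 145 in PTZ and 153 in saline cells, and it reached 1143 and 1240. *Dusp4* had a median of 47.8 and 53.8 and a mean CPM of 55.6 and 56.1. *Dusp5* was detected in 4 PTZ and 3 saline cells and *Dusp2* in 1 and 3, with a single saline cell, replicate 25, at 705 TPM of *Dusp2*. For *Dusp5* the log2 ratio of mean CPM was 0.88 and became -1.30 without PTZ cell 20. The treatments overlapped for each of these genes.

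*Dusp14* was detected about equally, in 19 of 30 PTZ and 25 of 38 saline cells, but at a higher level in PTZ cells. Its median TPM where detected was 264 and 126, its mean CPM 177 and 72.9, a 2.43-fold difference, and its log2 ratio stayed between 1.02 and 1.37 when each cell was left out in turn. As detection differed by -2.5 points, it was not past the rule. *Dusp8* was detected in 56.7% of PTZ and 71.1% of saline cells and *Dusp3* in 76.7% and 86.8%, with a mean CPM 1.56-fold and 1.16-fold lower in PTZ cells. *Dusp16* was detected in 3 and 4 cells. *Dusp10* was at 0 in all 68 whole cells, for which the exact interval allows a share of up to 11.6% of PTZ and 9.25% of saline cells, and the limit of 3 over n 10.0% and 7.89%.

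Over 68 whole cells and 11455 genes, the pair of genes whose log2(TPM + 1) was most like that of *Dusp1* was *Fos* (Pearson r = 0.67) and *Nr4a1*, an IEG of the nuclear receptor family (r = 0.65). For *Dusp4* the pair was *Nr4a3* and *Nr4a1* (r = 0.57 for both), and for *Dusp6* it was *Nfil3*, a transcription factor, and *Fos* (r = 0.69 for both). Within treatments, *Dusp1* with *Fos* gave 0.86 in PTZ and 0.56 in saline cells, and *Dusp6* with *Fos* gave 0.68 and 0.70. Correlation of the 3 genes with log2 depth was 0.15 to 0.18. In co-detection, *Dusp1* and *Dusp6* shared 10 of 30 PTZ cells and 8 of 38 saline cells, where the product of the shares gives 6.93 and 4.11. These were of the 16 and 12 with *Dusp1* and the 13 and 13 with *Dusp6*. *Dusp4* and *Dusp6* shared 10 PTZ and 10 saline cells, of the 15 and 18 with *Dusp4*, where the product gives 6.50 and 6.16. *Dusp1* and the widely detected *Dusp3* shared 13 and 11, where it gives 12.3 and 10.4. Cells with *Dusp1* had a median of 1496030 reads against 1090755 in all PTZ cells, and 889474 against 975934 in saline cells.

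The list of IEGs lacks *Nr4a3* and *Nfil3*, and the other members' nearest genes were not in it either. In whole cells they were *Clasp1* and *Ubl4* for *Dusp8*, *Acbd6* and *Wbp5* for *Dusp3*, and *Lonp2* and *D10Wsu102e* for *Dusp14*, with r from 0.48 to 0.56. In 81 NE nuclei they were *Yipf2* and *Rab3gap2* for *Dusp8*, *Lypla2* and *Wdr41* for *Dusp16*, *Zkscan5* and *Prelid1* for *Dusp3* and Gm37083 and *Cog1* for *Dusp14*, with r from 0.43 to 0.50 and partners detected in 10 to 29 nuclei. *Dusp1*, *Dusp4*, *Dusp5* and *Dusp6* were detected in fewer than 10 NE nuclei and were not compared there. The points of each correlation share library depth and many zeros, and the values describe these samples only.

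**Figure D5:**
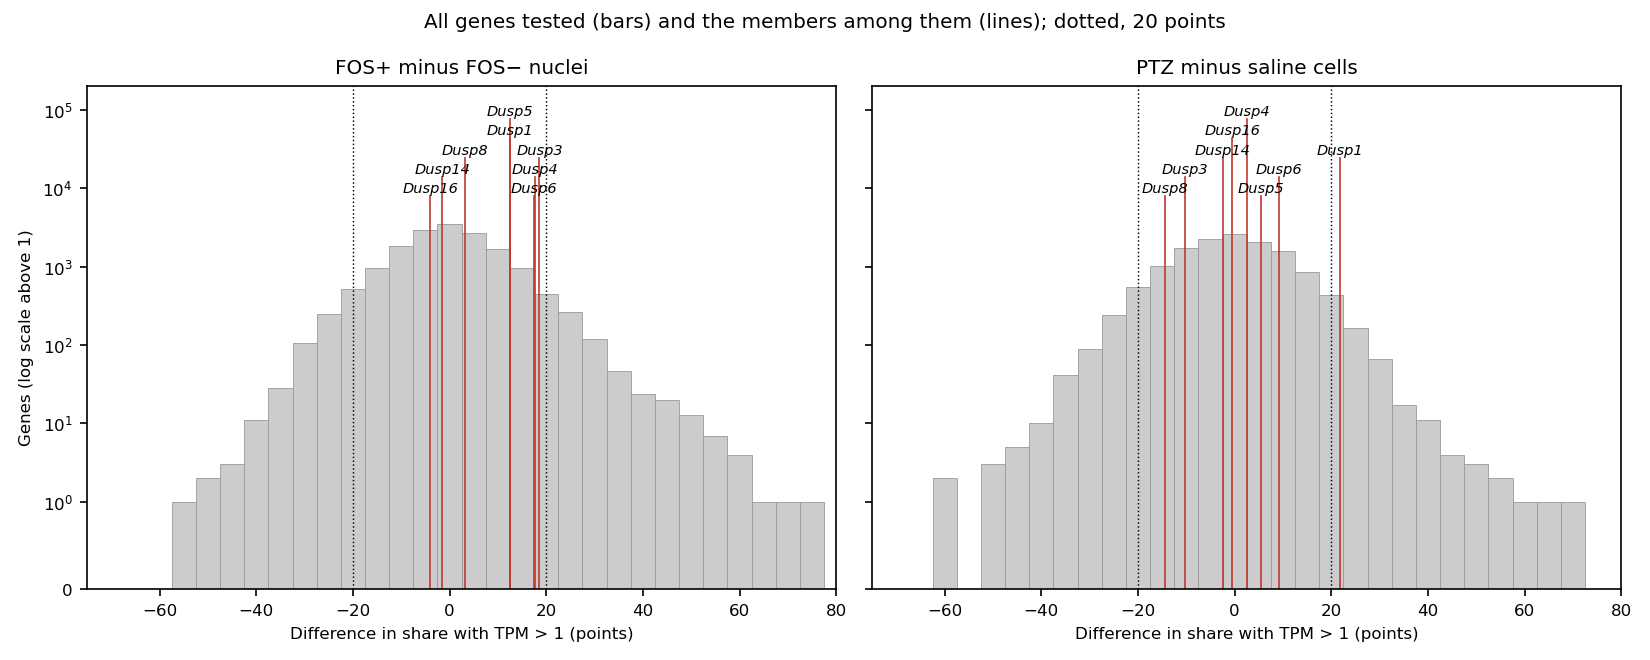
Bars count all genes examined by the difference in detection between FOS+ and FOS− nuclei (left) and between PTZ and saline cells (right), in percentage points, with gene numbers on a log scale above 1. Lines mark the members examined in each comparison, and dotted lines 20 points. *Dusp1* lies past 20 points in whole cells, and no member does in nuclei.

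Genes of the pathway around the DUSPs were read from fixed lists by the same rule of 20 points and 2-fold. In nuclei 2.89% of all genes examined passed it as higher in FOS+ and 2.57% as lower. In nuclei, 10 of 13 IEGs were past it as higher in FOS+ and none as lower, and the median detection difference of the list was 25.7 points against -0.85 over all genes examined and 7.8 over the 10 members. The 10 were *Fos*, which the sort selected by its protein, *Fosb*, *Junb*, *Arc*, *Egr1*, *Egr4*, *Nr4a1*, *Nr4a2*, *Homer1* and *Btg2*. *Nr4a2*, a nuclear receptor, was detected in 77.5% and 22%, and *Homer1*, a scaffold protein of the synapse, in 92.5% and 53.7%. Of 6 Sprouty and Spred genes in the table, inhibitors of RAS and RAF that like DUSPs act as feedback on ERK, 2 were higher. *Spry2* was detected in 87.5% of FOS+ and 41.5% of FOS− nuclei, with a mean CPM of 723 and 33.6, and *Spred2* in 57.5% and 29.3%. At 10 points, the limit at which 4 members passed, 12 of 13 IEGs and 3 of these 6 genes were higher and none lower. Of all genes examined, 7.71% were higher at that limit and 9.89% lower.

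Among kinases, 3 of 11 MAPK-activated kinases were past the rule as higher in FOS+ nuclei and none as lower. *Rps6ka3*, which encodes RSK2, was detected in 62.5% and 19.5%, *Mapkapk2* in 30% and 4.88% and *Mknk2* in 40% and 12.2%. Of 12 MAP kinases, 1 was higher, the atypical kinase *Mapk4*, at 62.5% against 12.2%. At 10 points, 4 of the 11 MAPK-activated kinases were higher and none lower, and of the 12 MAP kinases 1 was higher and 1 lower. Of 10 MAP kinase kinases and RAF kinases, *Braf* was higher at 90.0% against 65.9%. None of 13 other DUSP genes passed at 20 points. At 10 points 1 of the 13 passed as higher, near the 7.71% of all genes that did. It was *Dusp9*, a cytoplasmic ERK phosphatase, with 17.5% against 2.44%, but its mean CPM was 0.759 and 0.157.

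In whole cells no gene of these lists was past the rule as higher in PTZ cells apart from *Dusp1*. Of 13 IEGs, *Homer1* was lower, detected in 26.7% of PTZ and 52.6% of saline cells, and the median difference of the list was -11.9 points against -0.88 over all genes and -0.3 over the members. *Map2k6*, a p38 kinase kinase, was lower at 30% against 52.6%. Of 13 other DUSP genes, 1 passed at 10 points as higher and 1 as lower, near the 7.88% and 5.09% of all genes that did. They were *Dusp7*, a cytoplasmic ERK phosphatase, with 50% against 36.8%, and *Dusp28*, with 23.3% against 36.8%. At the same 10 points, 3 of 13 IEGs were lower and none higher. Of 6 Sprouty and Spred genes 1 was higher and 1 lower, and of 12 MAP kinases 1 was higher and none lower. In HC nuclei, 5 of 13 IEGs were detected in any nucleus, *Arc*, *Egr1*, *Nr4a2*, *Homer1* and *Btg2*, and 10 of 12 MAP kinases.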

How the data were processed

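The deposited tables hold, for each gene symbol, an expected count, which is the estimate of reads per gene by RSEM without normalization, and a TPM value computed by the authors within each sample. The authors trimmed reads (paired-end for whole cells and HC nuclei, single-end for NE nuclei) and aligned them with RSEM and Bowtie 1.0.0 to mm10 transcripts of Ensembl, so intronic reads are not counted. The tables hold no spike-ins.

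A sample was kept if its total count exceeded 50000 and its number of detected genes (TPM over 1) was no lower than 2 SD below the average of its table. All HC nuclei were used, 1 of them below this limit. No columns were identical. The sum of expected counts was the denominator of CPM. Shares have exact (Clopper-Pearson) 95% intervals and summed counts, rounded to whole numbers, exact Poisson intervals. Reads lack molecular identifiers and are not independent molecules, so intervals and floors of 3 counts cover counting error only. A count of 3 was 0.000283% to 0.00470% of the total in NE nuclei, 0.00108% to 0.00279% in HC nuclei and 5.85e-05% to 0.00446% in whole cells. As each group is 1 mouse or pool, no test was run. The study treated nuclei as replicates and left out some FOS+ nuclei, which the labels do not mark and which were kept here. Genes in the size rule had a TPM above 1 in at least 5 samples of the comparison. Named genes were the members, *Fos*, *Arc* and *Prox1*, list genes past the rule (apart from a kinase that is not reported here), and the 2 genes with the highest Pearson r to each member detected in at least 10 samples. *Gad1*, *Gad2*, *Slc32a1*, *Pvalb*, *Aldoc*, *C1ql2*, *Dusp9*, *Dusp7*, *Dusp28* and the list genes of HC nuclei were named after their values were seen. The members and lists were chosen with earlier results of these data known. Positions are from GENCODE M21. Computation used Python 3.11.15, numpy 2.4.6, pandas 2.3.3, scipy 1.17.1 and edgeR 4.0.16, the last for TMM factors of an alternative. Alternatives covered detection, thinning, scaling, the rule and left-out samples. Pooled levels without the FOS+ nucleus with most reads of a gene were added after the data were seen.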

Additional observations from a re-analysis of the deposited data

How the results depend on the processing

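The count of members past the rule in FOS+ nuclei, 0 as higher, became 4 with 10 points (also at 5 reads, an alternative added after the data were seen) and ranged from 0 to 1 when each nucleus was left out. In whole cells the 1 member past the rule became 0 with detection at a TPM above 5, a TPM above 0 or 5 reads, with thinning to 50000 reads and with 4-fold, and ranged from 0 to 1 when each cell was left out. It held without PTZ cell 22, an alternative added after the data were seen. No member was past the rule as lower under any alternative run. The number of all genes past it went from 474 higher and 421 lower in FOS+ nuclei to 253 and 194 with 4-fold, to 1264 and 1621 with 10 points and to 253 higher with all nuclei. At 10 points and 5 reads it was 953 and 1226. In whole cells it went from 311 and 214 to 130 and 70 with 4-fold, to 1084 and 700 with 10 points and to 87 lower with all cells.

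The detection differences of members, 80 in nuclei and 80 in whole cells over the alternatives, moved by less than the combined half-widths of the 2 groups' intervals. This limit is wide. It let *Dusp3* go from 18.6 to 3.2 points and *Dusp8* from 3.2 to -4.3 in nuclei, and *Dusp1* from 21.8 to 11.8 in whole cells. Mean levels were held to a limit of another kind, a fold change, so the stability of shares and levels cannot be compared. Leaving out each sample moved the log2 ratio of *Dusp16* in nuclei between -3.12 and 0.69, a change of sign. That of *Dusp5* in whole cells moved between -1.30 and 1.81, also a change of sign. Dividing summed counts by summed totals gave log2 ratios of 3.43 for *Dusp4*, -2.22 for *Dusp3* and -1.11 for *Dusp14* in nuclei. In whole cells it gave 1.79 for *Dusp1*, 1.24 for *Dusp6*, -5.07 for *Dusp2*, 0.19 for *Dusp5* and, in place of 0.58, -0.69 for *Dusp16*, and leaving out PTZ cell 35 turned the latter negative too. The cause was not tested, apart from the single samples named above. No paired analysis was possible because replicate numbers only name cells and nuclei in accession order and each group is 1 mouse or pool.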
